A study of Mus musculus with 12 samples.

Results

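The immediate early transcription factors described here were 10 genes chosen by name. They were the FOS genes Fos and Fosb, the JUN genes Jun, Junb and Jund, the EGR genes Egr1, Egr2 and Egr3, and Atf3 and Ier2. All 10 were found among the 48795 genes of the count table, each as 1 Ensembl gene, and 9 of them passed the filter on low counts, which left out Egr3. Polyadenylated RNA of mouse fetal membranes had been sequenced in 12 libraries, 3 in each of 4 groups. The E18 DKO group was labelled as a double knockout of biglycan and decorin, of strain C3H and C57BL/6, at embryonic day 18. The labelled E18 WT group was wild-type, of strain C3H, at day 18. The E12 DKO group carried the same double knockout and strain label at day 12, and the E12 WT group was wild-type C3H at day 12. Genotype and strain label therefore cannot be told apart. The labels do not say whether libraries came from separate animals or litters or whether membranes were pooled, so p-values measure only the spread between these samples.

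Immediate early genes are transcribed within minutes of a signal, from factors that are already present in the cell, and their short-lived mRNAs fall again soon after. FOS proteins pair with JUN proteins to form the transcription factor AP-1, JUN proteins also pair with each other and with ATF3, and the EGR proteins bind GC-rich sites through zinc fingers. Growth factors, stretch, inflammation and wounding switch these genes on, and so does the dissection of a tissue. Per the labels, membranes were dissected in buffered saline, snap-frozen and ground before RNA was extracted. The labels used here give no time between dissection and freezing, and handling was not tested as a source of any difference below.

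Total counts ran from 19967593 to 33065424 per library. Bgn, the targeted biglycan gene, had 14.3 to 25.1 CPM (counts per 1e+06 counts, after TMM scaling) in DKO libraries, against 223 to 686 in WT libraries, and Dcn, the decorin gene, had 4.67 to 8.44 CPM in DKO libraries, against 198 to 978 in WT libraries. Markers of visceral yolk sac endoderm, mesenchyme and simple epithelium were detected in every library. Of all beta-globin counts, the embryonic forms made by the first red cells of the embryo took 1.33% to 2.67% in E18 DKO libraries, but 74.8% to 87.8% in the libraries labelled E18 WT, 82.3% to 85.1% in E12 DKO libraries, and 14.8%, 95.1% and 97.1% in E12 WT libraries 1, 2 and 3. In this measure the libraries labelled E18 WT lay near the E12 DKO libraries, and E12 WT 1 lay apart from both other E12 WT libraries. Labelled E18 WT 3 also stood apart, with a summed 904 CPM of trophoblast and decidua markers, against 7.41 and 22.9 CPM in the other libraries of its group. Values without E12 WT 1 or labelled E18 WT 3 are also given for many members, but not for every comparison that leaving them out moved.

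RefSeq promoters were at hand for 7 of the 10 genes (GRCm38.p6, 250 bases before to 50 bases after each start, all starts of a gene). They were searched on both strands for the CArG box bound by serum response factor, the cyclic AMP response element TGACGTCA, the AP-1 site TGANTCA, the EGR site GCGNGGGCG and the TATA box TATAAA. These motifs do not overlap one another in the windows printed. Each was present in 1.63%, 1.79%, 7.81%, 5.55% and 13.6% of the 32851 promoters of the table, in that order. The 4 genes whose windows held a match are shown because they include the most variable FOS gene of the data and the only match to the CArG box. Capitals mark the match.

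Fos, chr12:85473640-85473939, plus strand: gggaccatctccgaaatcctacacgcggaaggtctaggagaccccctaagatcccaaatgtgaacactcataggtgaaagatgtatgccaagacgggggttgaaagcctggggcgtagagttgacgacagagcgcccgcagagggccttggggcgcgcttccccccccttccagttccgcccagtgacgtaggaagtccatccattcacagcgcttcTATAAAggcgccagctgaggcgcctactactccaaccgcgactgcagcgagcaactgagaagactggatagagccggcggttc

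Fosb, chr7:19309996-19310295, minus strand: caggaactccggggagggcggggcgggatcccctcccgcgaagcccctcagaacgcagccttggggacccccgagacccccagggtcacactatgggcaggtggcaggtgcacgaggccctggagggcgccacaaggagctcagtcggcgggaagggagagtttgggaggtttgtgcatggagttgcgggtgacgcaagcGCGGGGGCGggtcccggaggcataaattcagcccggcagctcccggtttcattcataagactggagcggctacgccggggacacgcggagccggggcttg

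Junb, chr8:84978699-84978998, minus strand: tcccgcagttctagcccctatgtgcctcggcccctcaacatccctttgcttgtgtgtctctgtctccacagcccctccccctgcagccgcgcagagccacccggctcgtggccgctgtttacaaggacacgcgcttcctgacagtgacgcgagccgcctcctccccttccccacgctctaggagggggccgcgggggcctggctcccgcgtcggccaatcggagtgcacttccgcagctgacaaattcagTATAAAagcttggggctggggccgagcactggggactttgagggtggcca

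Egr2, chr10:67537619-67537918, plus strand: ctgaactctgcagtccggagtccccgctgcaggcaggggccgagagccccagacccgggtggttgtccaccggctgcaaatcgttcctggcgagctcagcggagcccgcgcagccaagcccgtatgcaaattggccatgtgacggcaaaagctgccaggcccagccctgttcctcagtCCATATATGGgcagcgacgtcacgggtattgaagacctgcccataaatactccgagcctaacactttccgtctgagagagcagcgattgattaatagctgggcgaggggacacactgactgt

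The Fos window held a TATA box 33 to 28 bases before the start. The Fosb window held an EGR site 50 to 42 bases before the start. The TATA box of Junb lay at the RefSeq start itself, 30 to 25 bases before the first base of Junb in the annotation the authors used. Egr2 had 5 starts in the table, and 4 of its windows held a CArG box, here 72 to 63 bases before the start. Some of these windows overlap, and the box printed here is the same site in each of those. It lies 2322 to 2331 bases downstream of the first base of Egr2 in the annotation the authors used. The windows of Jun, Jund and Atf3 held none of these letters. The RefSeq start of Jund lies 1210 bases upstream of its first base in the annotation the authors used. That of Atf3, at base 191183333, lies downstream of the first base there, 191218039. The windows of Jund and Atf3 therefore do not cover the first bases of the genes as counted.

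The members were highest in E18 DKO membranes. Summed over the 10 genes they reached 1176, 819 and 944 CPM in the E18 DKO libraries, 257, 222 and 360 CPM in labelled E18 WT libraries, 175, 201 and 196 CPM in E12 DKO libraries, and 628, 358 and 307 CPM in E12 WT libraries. The E18 DKO libraries lay above all others and the E12 DKO libraries below all others. In the order of group means, E12 WT came second, ahead of labelled E18 WT, for Fos, Jun, Junb, Jund, Atf3 and Ier2, whereas labelled E18 WT came second for Fosb, Egr1 and Egr2, and E12 DKO for Egr3. Neighbours in that order often overlapped: E12 WT and labelled E18 WT overlapped for every member except Jund and Atf3, and E18 DKO overlapped the group next to it for Jun, Egr2, Egr3 and Ier2.

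**Figure D1:**
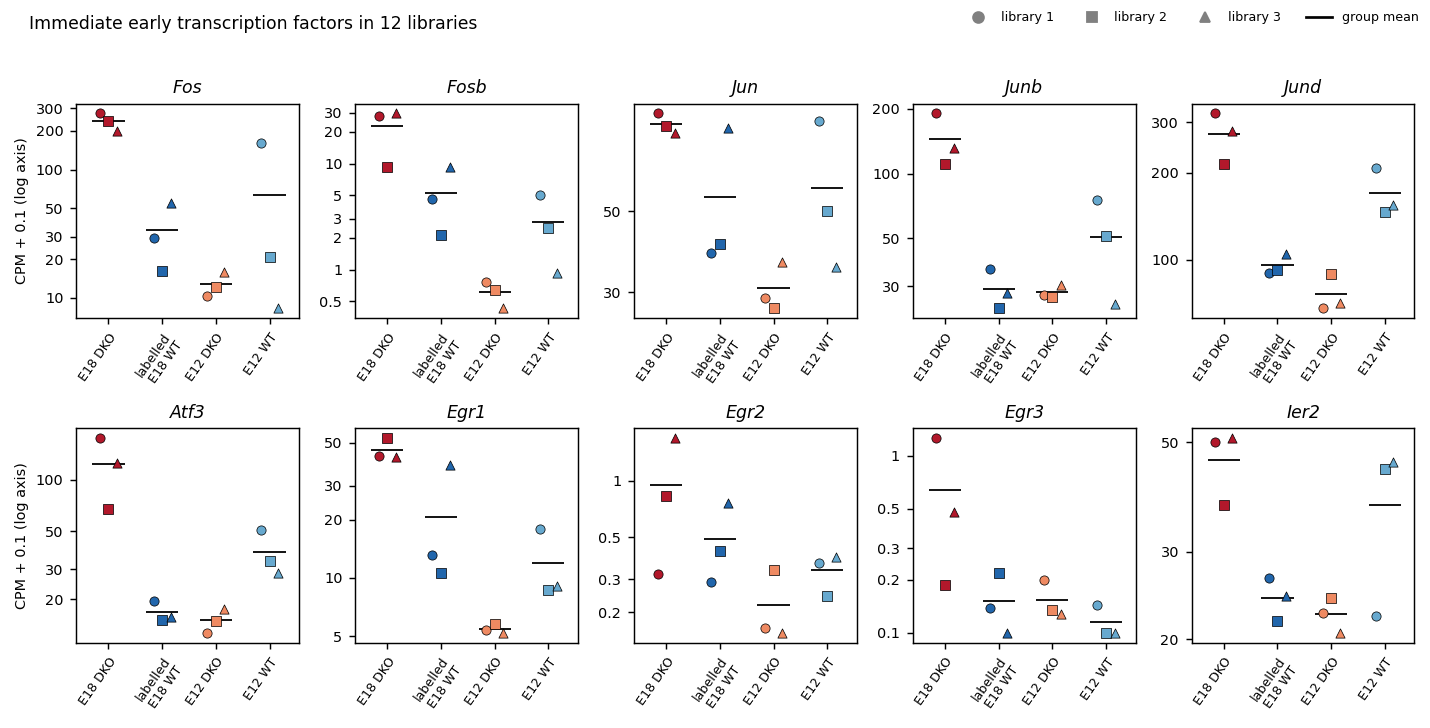
CPM of each member in the 12 libraries on a log axis, with 0.1 CPM added so that libraries at 0 can be drawn. Symbols are libraries, bars are group means (n = 3 each). The E18 DKO libraries lie above those labelled E18 WT for 7 of the 10 genes, and E12 WT library 1 is the highest of its group for Fos, Fosb, Jun, Junb, Jund, Atf3 and Egr1.

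Per kilobase of transcript, Jund was the most abundant member in each of the 12 libraries. Its mean was 163 ± 32.1 RPKM, counts per kilobase and per 1e+06 counts, in E18 DKO libraries, 57.3 ± 4.79 in libraries labelled E18 WT, 45.6 ± 7.05 in E12 DKO libraries and 102 ± 19.8 in E12 WT libraries (SD, n = 3 each). Fos was second in all 3 E18 DKO libraries, at 85.5 to 117 RPKM, and in E12 WT 1, at 68.3 RPKM. In 7 of the other 8 libraries Ier2 was second, and in labelled E18 WT 3 it was Jun.

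At labelled E18, the question was whether membranes lacking biglycan and decorin differ from wild-type ones. By beta-globin, the libraries labelled E18 WT lay near the E12 DKO libraries, so stage and genotype cannot be told apart here. This comparison called 7678 of all genes, and E12 DKO against labelled E18 WT called 34. Of the 9 tested members, 6 were higher in E18 DKO than in labelled E18 WT libraries and 0 were lower, where 42.3% of all 18153 tested genes were called and 20.5% were called higher (edgeR quasi-likelihood test, Benjamini-Hochberg adjusted p under 0.05). The median log2 fold change was 1.51 over the 9 members and -0.04 over all tested genes. Ranges of the 2 groups did not overlap for 7 members, all higher in E18 DKO, where 27.8% of tested genes were separated in that direction. Without labelled E18 WT 3, 8 members were called higher, where 3364 of all genes were, and without both that library and E12 WT 1, 8 were, where 4569 of all genes were. Scaling by total counts alone gave a median of -0.41 over all tested genes at E18 and left 4 members called, all higher, where 2382 genes were called higher and 6015 lower, beside 3725 and 3953 in the fit reported here. In bulk tissue, a change in the number of cells of a type and a change in RNA per cell cannot be told apart.

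At E12 the direction was the opposite. All 9 fold changes were below 0, with a median of -1.15 against -0.08 over all tested genes, but 1 member (Jund) passed the test, lower in E12 DKO, where 0.353% of tested genes were called and 0.259% were called lower. At an unadjusted p under 0.05, 8 members were lower, where 15.3% of tested genes were, and DESeq2's Wald test called 4 (Fos, Fosb, Jund and Atf3), where it called 1330 genes lower, and limma voom called Jund, where it called 46 genes lower. The groups did not overlap for 4 members, where 14.4% of tested genes were separated in that direction. Without E12 WT 1, 3 members were called lower (Jund, Atf3 and Ier2), where 1901 of all genes were. Without that library and labelled E18 WT 3, 4 members were (Jund, Atf3, Egr1 and Ier2), where 2209 of all genes were.

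The difference between these 2 genotype effects was tested directly. It was above 0 and called for 8 of the 9 members, where 41.9% of tested genes were called and 21.6% in that direction. Egr2 was the exception, with a difference of 2.05 ± 1.14 on the log2 scale (SE; edgeR adjusted p = 0.167). This difference compares 2 wild-type groups whose stage labels are in doubt.

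**Figure D2:**
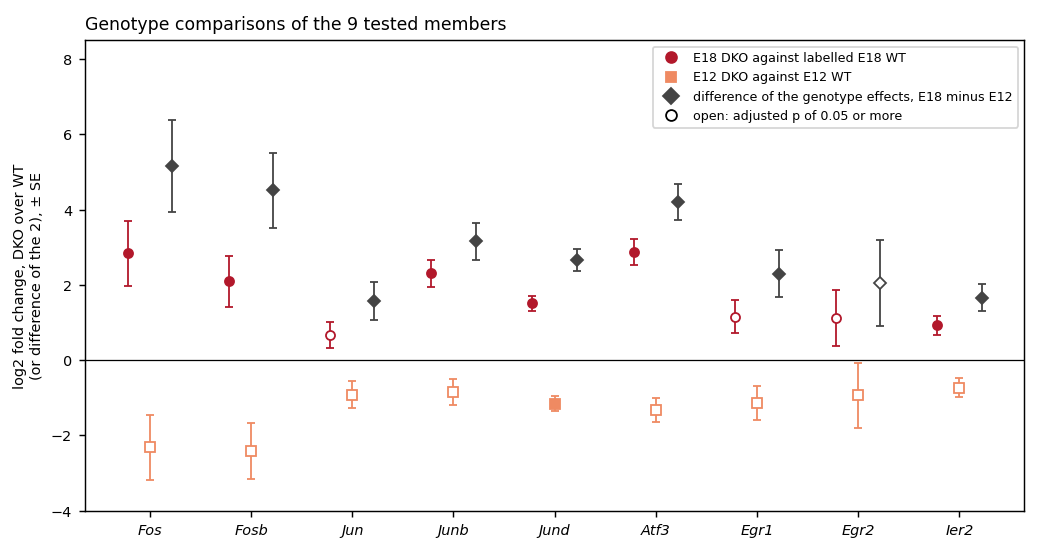
Log2 fold change of each tested member, DKO over WT, at E18 and at E12, and the difference of the 2, with SE bars. Filled symbols passed an edgeR adjusted p of 0.05. Values at E18 lie above 0 and values at E12 below 0 for all 9 members.

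Within the knockout, all 9 tested members were higher at E18 than at E12, where 46.0% of tested genes were called and 23.2% were called higher. The log2 fold changes ran from 1.04 ± 0.25 for Ier2 to 5.44 ± 0.81 for Fosb (SE), with Fos at 4.23 ± 0.93. The groups did not overlap for 8 members, all higher at E18, where 33.1% of tested genes were separated in that direction. Ier2 was not called there when libraries were scaled by total counts alone (edgeR adjusted p = 0.0547). The call of Egr2 was lost without E18 DKO 3 (edgeR adjusted p = 0.0840), E12 DKO 1 (0.0680) or E12 DKO 3 (0.0701). The libraries labelled E18 WT against E12 WT gave 0 called members by edgeR, where 0.953% of tested genes were called. There, 4 members had an unadjusted p under 0.05 (Junb, Jund, Atf3 and Ier2, all lower), where 10.6% of tested genes were lower at that p. DESeq2 called 2 members there (Jund and Atf3, both lower) and limma voom 0. Ranges were separated for these 2 members, where 8.6% of tested genes were separated downward. E12 DKO against labelled E18 WT also gave 0 called members by edgeR, where 0.187% of tested genes were called. In that comparison 3 members had an unadjusted p under 0.05 (Fosb, Jun and Egr1, all lower), where 5.6% of tested genes were lower at that p. DESeq2 called 2 (Fosb and Egr1, both lower) and limma voom 0. Ranges were separated downward for 5 members, where 14.5% of tested genes were. For labelled E18 WT against E12 WT and E12 DKO against labelled E18 WT, the DESeq2 and limma voom counts stand without those over all genes. Between the E12 groups, DESeq2 called 2073 genes where edgeR called 64, so these counts are not read as results about the members. These comparisons share libraries with those above.

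Fos (ENSMUSG00000021250, chr12:85473890-85477273, plus strand) encodes the FOS partner of AP-1. It had 274, 240 and 201 CPM in E18 DKO libraries, against 29.1, 16.1 and 54.9 CPM in libraries labelled E18 WT. All 3 E18 DKO libraries were higher, by 7.14-fold in the fit (log2 fold change 2.84 ± 0.87 SE, edgeR adjusted p = 0.0222), and the log2 fold change was 3.39 without labelled E18 WT 3. The call was lost without E18 DKO 1 (adjusted p = 0.0523), labelled E18 WT 1 (0.0717) or labelled E18 WT 2 (0.0802), with log2 fold changes of 2.73, 2.74 and 2.50. At E12, Fos had 10.2, 12.1 and 15.7 CPM in DKO libraries, against 161, 20.8 and 8.18 CPM in WT libraries. The groups overlapped, since E12 WT 3 lay below every E12 DKO library and E12 WT 1 was 19.6-fold above it. The log2 fold change of -2.32 ± 0.86 (adjusted p = 0.141) became -0.20 without E12 WT 1. The difference between the E18 and E12 effects was 5.15 ± 1.22 (adjusted p = 0.00677) with that library and 3.04 (adjusted p = 0.00330) without it.

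Fosb (ENSMUSG00000003545, chr7:19302696-19310051, minus strand), the second FOS gene, was expressed at lower levels but over the widest range of the tested members. Its highest library was 89.2-fold above its lowest, compared with 33.5-fold for Fos and 2.48-fold for Ier2. It had 28.1, 9.21 and 29.6 CPM in E18 DKO libraries, against 4.56, 2.02 and 9.11 CPM in libraries labelled E18 WT. The groups nearly touched, at 9.21 and 9.11 CPM, and the log2 fold change was 2.09 ± 0.68 (edgeR adjusted p = 0.0284). Leaving out E18 DKO 1, E18 DKO 3, labelled E18 WT 1 or labelled E18 WT 2 ended the call (adjusted p from 0.0804 to 0.0914), as did scaling by total counts alone (1.72, adjusted p = 0.0525). At E12, Fosb had 0.657, 0.542 and 0.332 CPM in DKO libraries, against 4.93, 2.39 and 0.824 CPM in WT libraries. Every E12 DKO library was lower, from 12 to 20 counts per library, and the log2 fold change of -2.42 ± 0.74 did not pass the test (adjusted p = 0.102). Without E12 WT 1 it was -1.69 (adjusted p = 0.128). At E18, the value without labelled E18 WT 3 was 2.76 (adjusted p = 0.0183).

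Among the JUN genes, Junb and Jund were higher in E18 DKO membranes and Jun was not called. Junb (ENSMUSG00000052837, chr8:84974484-84978718, minus strand), a JUN protein that often restrains c-JUN, had 191, 111 and 131 CPM in E18 DKO libraries, against 36.0, 23.6 and 27.6 CPM in libraries labelled E18 WT. The groups were far apart and the call held with each library left out (log2 fold change 2.31 ± 0.36, edgeR adjusted p = 0.000714). At E12, Junb had 27.3, 26.6 and 30.3 CPM in DKO libraries, against 75.3, 51.4 and 24.5 CPM in WT libraries. These overlapped through E12 WT 3, the lowest library of the stage (log2 fold change -0.85 ± 0.35, adjusted p = 0.170), and the value was -0.44 without E12 WT 1. Prdx2 overlaps Junb on the opposite strand, as Junos overlaps Jun.

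Jund (ENSMUSG00000071076, chr8:70698949-70700616, plus strand), the JUN gene that many resting cells express, had 322, 215 and 279 CPM in E18 DKO libraries, against 89.7, 92.3 and 105 CPM in libraries labelled E18 WT. The increase of 1.51 ± 0.20 on the log2 scale (edgeR adjusted p = 0.000371) held with each library left out. At E12, Jund had 67.9, 89.6 and 70.7 CPM in DKO libraries, against 208, 147 and 155 CPM in WT libraries. All 3 E12 DKO libraries were lower, and Jund was the 1 member called at E12 (log2 fold change -1.16 ± 0.20, adjusted p = 0.0424). That call stood close to the threshold. It was lost in 9 of the 12 fits that omit 1 library, namely without E18 DKO 1 or 3, any library labelled E18 WT, any E12 DKO library or E12 WT 3, with adjusted p up to 0.243 and fold changes from -1.29 to -1.08. It was kept without E12 WT 1, at -0.98 (adjusted p = 0.00963), and lost with the replicate number as a block (adjusted p = 0.0712), with scaling by total counts alone (0.0637), with no filter (0.0523) and with only the E12 groups in the fit (0.176).

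Reads on the other strand accompanied Jund. Gm11175 (chr8:70699162-70700080, minus strand) is annotated wholly inside Jund, and its counts came to 50.8% to 71.4% of the Jund count per library. It was higher in E18 DKO than in labelled E18 WT libraries, by 1.36 ± 0.22 on the log2 scale (edgeR adjusted p = 0.000883), and its E12 value was -1.004 ± 0.22 (adjusted p = 0.0703). Counting used strand, per the file headers, so the same reads were not counted for both genes. Whether the Gm11175 reads came from a transcript separate from Jund was not tested. The RefSeq table starts Jund 1210 bases upstream of the annotation the authors used, so part of its RNA may not have been counted.

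Jun (ENSMUSG00000052684, chr4:95049034-95052222, minus strand) encodes c-JUN, the activating JUN protein. It had 92.6, 85.6 and 81.8 CPM in E18 DKO libraries, against 38.4, 40.7 and 84.6 CPM in libraries labelled E18 WT. Labelled E18 WT 3 lay among the E18 DKO libraries, and the log2 fold change was 0.67 ± 0.35 (edgeR adjusted p = 0.148). Without that library it was 1.13 (adjusted p = 0.0229). At E12, Jun had 28.8, 27.0 and 36.2 CPM in DKO libraries, against 88.0, 50.1 and 35.1 CPM in WT libraries, with an overlap at 36.2 and 35.1 CPM (log2 fold change -0.91 ± 0.36, adjusted p = 0.156), and the value was -0.47 without E12 WT 1. The difference between stages of 1.58 ± 0.50 (adjusted p = 0.0264) was no longer called without E18 DKO 1, labelled E18 WT 1 or 2, or E12 DKO 1 or 2 (adjusted p from 0.0543 to 0.0660), or with scaling by total counts alone (0.91, adjusted p = 0.153).

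Atf3 (ENSMUSG00000026628, chr1:191170296-191218039, minus strand) encodes a stress-induced factor that pairs with JUN proteins and mostly represses. It had 175, 67.9 and 126 CPM in E18 DKO libraries, against 19.6, 15.1 and 15.6 CPM in libraries labelled E18 WT. The lowest E18 DKO library was still far above every library labelled E18 WT. The log2 fold change was 2.87 ± 0.34 (edgeR adjusted p = 0.000191), and the call held with each library left out. At E12, Atf3 had 12.7, 14.9 and 17.6 CPM in DKO libraries, against 51.1, 33.5 and 28.5 CPM in WT libraries. All 3 E12 DKO libraries were lower, yet the log2 fold change of -1.33 ± 0.32 did not pass (adjusted p = 0.0755). Without E12 WT 1 it was -1.04 and passed (adjusted p = 0.0456).

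Egr1 (ENSMUSG00000038418, chromosome 18) encodes the zinc-finger factor that growth factor signals induce through serum response factor. It had 42.7, 52.7 and 42.0 CPM in E18 DKO libraries, against 13.003, 10.5 and 38.3 CPM in libraries labelled E18 WT. The groups did not overlap, but labelled E18 WT 3 came close to the E18 DKO libraries, and the log2 fold change of 1.15 ± 0.44 missed the threshold (edgeR adjusted p = 0.0540). DESeq2 (adjusted p = 0.0254) and limma voom (1.44, adjusted p = 0.0119) called it. It passed without E12 WT 1 (adjusted p = 0.0300) and without labelled E18 WT 3, which raised it to 1.96 (adjusted p = 0.00194). At E12, Egr1 had 5.26, 5.66 and 5.10 CPM in DKO libraries, against 17.8, 8.60 and 9.004 CPM in WT libraries. E12 DKO libraries were lower and close together, with a log2 fold change of -1.15 ± 0.45 (adjusted p = 0.156), which was -0.72 without E12 WT 1.

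The other EGR genes were near the limit of detection. Egr2 (ENSMUSG00000037868, chr10:67535475-67542188, plus strand) had 4, 17 and 29 counts in E18 DKO libraries, 5, 11 and 16 in libraries labelled E18 WT, 2, 7 and 2 in E12 DKO libraries, and 6, 4 and 5 in E12 WT libraries. Neither genotype comparison was called for it (edgeR adjusted p = 0.249 at E18 and 0.525 at E12). At E18 its log2 fold change was 1.11 ± 0.75, and 1.68 without labelled E18 WT 3. Egr3 (ENSMUSG00000033730, chr14:70077445-70080157, plus strand) had 21, 2 and 7 counts in E18 DKO libraries, 1, 4 and 0 in libraries labelled E18 WT, 3, 1 and 1 in E12 DKO libraries, and 1, 0 and 0 in E12 WT libraries. A count of 0 allows up to 3 counts, which is 0.107 to 0.177 CPM in the libraries concerned, and covers counting error only.

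Ier2 (ENSMUSG00000053560, chr8:84661331-84662852, minus strand), which encodes a small nuclear protein induced with the FOS genes, had another order of E12 WT libraries than the members above. It had 50.02, 37.1 and 50.8 CPM in E18 DKO libraries, against 26.4, 21.7 and 24.3 CPM in libraries labelled E18 WT. E18 DKO libraries were all higher (log2 fold change 0.93 ± 0.25, edgeR adjusted p = 0.0121), and the call was lost when libraries were scaled by total count alone (0.56, adjusted p = 0.107). At E12, Ier2 had 22.5, 24.1 and 20.5 CPM in DKO libraries, against 22.2, 44.1 and 45.4 CPM in WT libraries. E12 WT 1, the highest E12 WT library for the 7 other members above a mean of 5 CPM, was the lowest for Ier2. The log2 fold change of -0.73 ± 0.25 (adjusted p = 0.122) became -0.997 without it and passed (adjusted p = 0.00782).

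**Figure D3:**
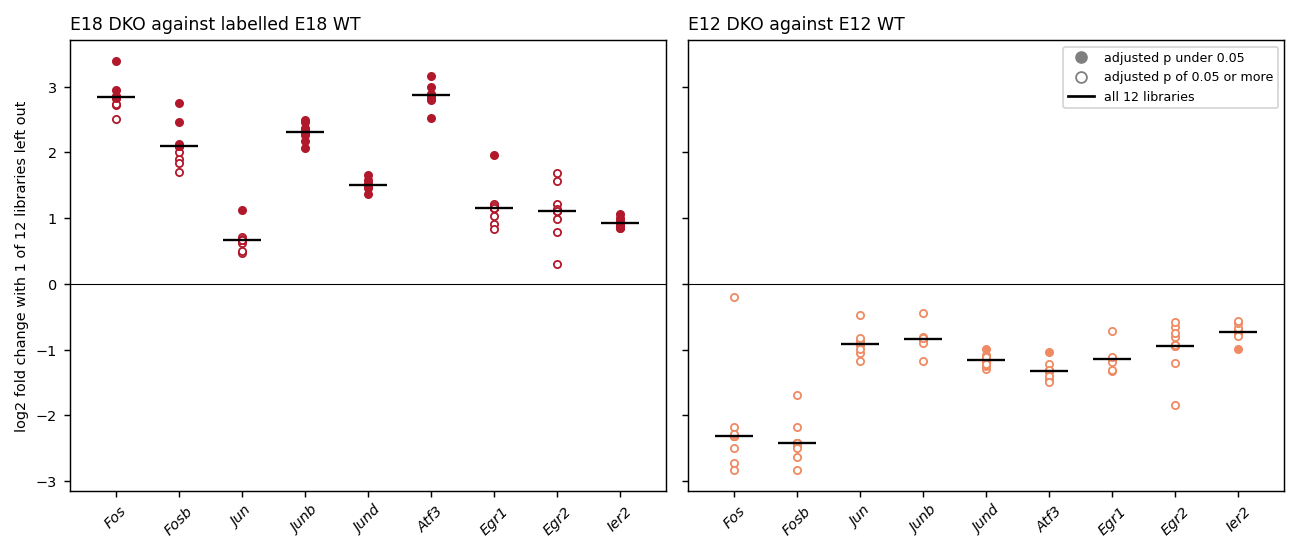
Log2 fold change of each tested member in the 12 fits that leave out 1 library each, at E18 (left) and E12 (right). Each point is 1 fit, filled where the edgeR adjusted p was under 0.05, and the bar is the fit of all 12 libraries. Junb, Jund, Atf3 and Ier2 stay called at E18 in each of these fits, and Fos at E12 comes nearest to 0, at -0.20, without E12 WT 1.

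The mix of FOS, JUN and ATF3 transcripts among the members differed along with the total. Fosl1 and Fosl2, which also encode FOS proteins, are not members and are left out of these shares. Protein was not measured. Over Fos, Fosb, Jun, Junb, Jund and Atf3 the summed level was 507, 339 and 399 RPKM in E18 DKO libraries, against 104, 92.6 and 133 RPKM in libraries labelled E18 WT, and 71.9, 85.9 and 81.8 RPKM in E12 DKO libraries, against 278, 151 and 131 RPKM in E12 WT libraries. Fos made up 24.8% ± 4.59 of that sum in E18 DKO libraries and 12.3% ± 5.06 in libraries labelled E18 WT (SD, n = 3 each). It made up 6.73% ± 1.24 in E12 DKO libraries and 11.04% ± 11.8 in E12 WT libraries, where E12 WT 1 had 24.6% and the others 5.87% and 2.65%. The 3 JUN genes together made up 61.0% ± 1.49 in E18 DKO libraries, 79.7% ± 4.46 in libraries labelled E18 WT, 84.4% ± 2.28 in E12 DKO libraries and 79.1% ± 11.0045 in E12 WT libraries. Atf3 made up 13.3% ± 3.56, 7.27% ± 1.69, 8.73% ± 1.08 and 9.64% ± 0.956 in the same order of groups. The shares of E18 DKO and labelled E18 WT libraries did not overlap for Fos, the JUN sum or Atf3. No test was made of these shares, which sum to a fixed total and so are not independent.

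**Figure D4:**
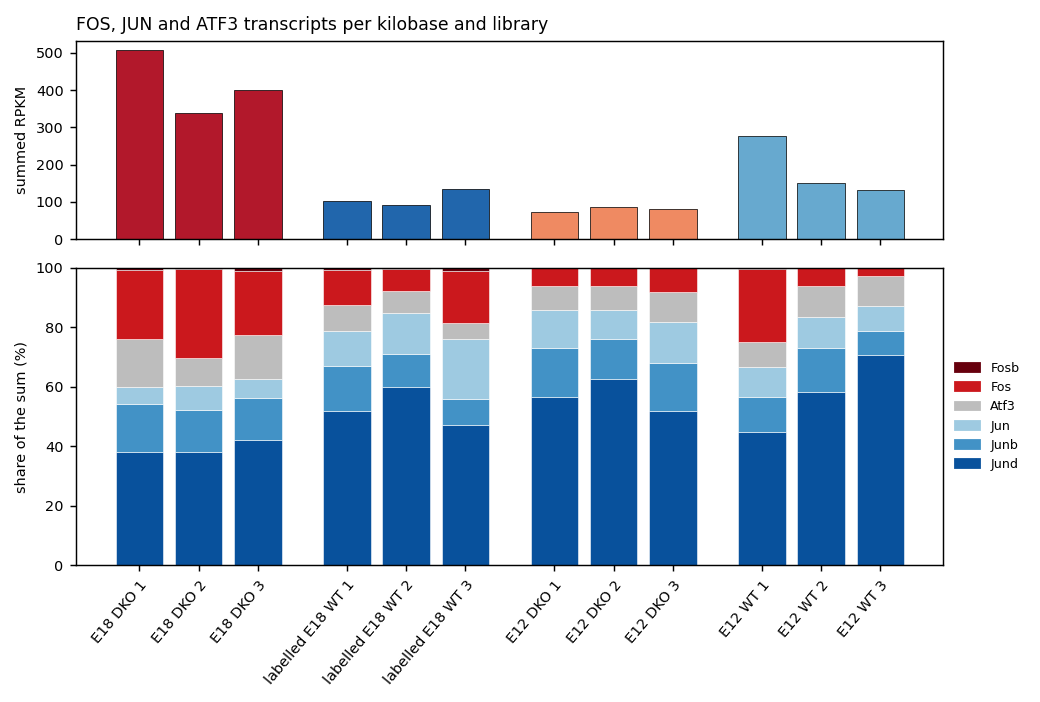
Summed RPKM of Fos, Fosb, Jun, Junb, Jund and Atf3 in each library (top) and the share of each gene in that sum (bottom, in percent). Fos takes 21.4% to 30.0% in E18 DKO libraries and 24.6% in E12 WT 1, and 2.65% to 17.5% in the other libraries.

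Relatives of the members moved in both directions at E18. Of 19 other AP-1 and ATF family genes, 7 were higher and 2 lower in E18 DKO, with a median log2 fold change of 0.34 against -0.04 over all tested genes. As given above, 20.5% of all tested genes were called higher in this comparison and 42.3% in either direction. With libraries scaled by total counts alone, 5 were higher and 3 lower, where 2382 of all genes were higher and 6015 lower. With 1 library left out, 5833 to 9452 of all genes were called at E18. These counts over all genes hold for the lists below too. The number higher fell to 3 without labelled E18 WT 1 or labelled E18 WT 2, and was 10 without E12 WT 1 and labelled E18 WT 3 together. At E12, edgeR called 0, and 5 were lower at an unadjusted p under 0.05, where 15.3% of tested genes were. DESeq2 called 4 lower, where it called 1330 genes lower. Without E12 WT 1, edgeR called 2 higher and 2 lower, where it called 3199 of all genes, 1901 of them lower. Fosl2, which encodes the FOS protein FRA-2, had 256, 177 and 146 CPM in E18 DKO libraries, against 16.6, 23.1 and 60.5 CPM in libraries labelled E18 WT (log2 fold change 2.53 ± 0.71, edgeR adjusted p = 0.0144). Its call was lost without labelled E18 WT 1 or 2 (adjusted p up to 0.0578). Fosl1, for FRA-1, was also higher, by 3.60 ± 0.73 (adjusted p = 0.00282), as were Atf5 (1.01 ± 0.15, adjusted p = 0.000639) and Batf3 (1.87 ± 0.51, adjusted p = 0.0127). Batf3 lost its call without labelled E18 WT 1 (adjusted p = 0.0515). Batf2 fell by 0.75 ± 0.27 (adjusted p = 0.0424), and its call was lost in 8 of the 12 fits that omit 1 library. At E12 the list was led by Atf4, at -0.64 ± 0.17 (edgeR adjusted p = 0.0822), and Batf3, at -1.53 ± 0.50 (adjusted p = 0.116), neither of which passed.

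Other immediate early genes were mostly higher in E18 DKO membranes. Of 40 listed and 39 tested, 28 were higher and 0 lower in E18 DKO, beside 20.5% of all tested genes called higher, with a median log2 fold change of 1.97 against -0.04 over all tested genes. At E12, 0 were higher and 1 lower, where 0.259% of tested genes were called lower, with a median of -0.94 against -0.08. At an unadjusted p under 0.05, 22 were lower, where 15.3% of tested genes were. DESeq2 called 12 lower, where it called 1330 genes lower. Without E12 WT 1 edgeR called 6 lower, where 1901 of all genes were. Without E12 WT 1 and labelled E18 WT 3 together it called 8, where 2209 of all genes were. Without labelled E18 WT 3 or E12 WT 2 it called 3 lower. With 1 library left out, 1 to 3199 of all genes were called at E12. Socs3, which encodes an inhibitor of cytokine signalling, had 235, 126 and 160 CPM in E18 DKO libraries, against 11.3, 11.4 and 13.9 CPM in libraries labelled E18 WT. It was higher by 3.83 ± 0.39 on the log2 scale (edgeR adjusted p = 0.000124). Cebpb, a factor of the acute-phase response, was higher by 2.35 ± 0.27 (adjusted p = 0.000168), Rhob, a small GTPase, by 2.13 ± 0.26 (adjusted p = 0.000221), and Myc, which drives growth genes, by 2.55 ± 0.37 (adjusted p = 0.000555). Hbegf, which encodes an EGF receptor ligand, was the gene called at E12. It had 2.399, 2.47 and 3.88 CPM in E12 DKO libraries, against 14.3, 65.4 and 39.0 CPM in E12 WT libraries (log2 fold change -3.76 ± 0.56, adjusted p = 0.0305). Its call was lost in 8 of the 12 fits that omit 1 library (adjusted p up to 0.200): without E18 DKO 1 or 3, labelled E18 WT 1 or 2, any E12 DKO library or E12 WT 3.

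Of 21 feedback inhibitors, which limit the response, 8 were higher and 0 lower in E18 DKO, beside 20.5% of all tested genes called higher, with a median log2 fold change of 0.59. Without labelled E18 WT 2, 5 were higher, and scaling by total counts alone gave 5 higher and 2 lower. At E12, edgeR called 0, and 1 was higher and 6 lower at an unadjusted p under 0.05, where 15.3% of tested genes were lower. DESeq2 called 2 lower, where it called 1330 genes lower. With E12 WT 1 left out, edgeR called 2 higher and 2 lower, where it called 3199 of all genes, 1901 of them lower. The lowest p there belonged to Spry1, at -0.60 ± 0.16 (edgeR adjusted p = 0.0805), and Dusp5, at -1.24 ± 0.42 (adjusted p = 0.120). Dusp1, a phosphatase that switches off MAP kinases, had 290, 154 and 202 CPM in E18 DKO libraries, against 20.0, 19.7 and 22.2 CPM in libraries labelled E18 WT (log2 fold change 3.38 ± 0.70, edgeR adjusted p = 0.00308). Dusp5, a phosphatase for ERK, was higher by 2.42 ± 0.43 (adjusted p = 0.00139), Spry1, an inhibitor of receptor tyrosine kinase signalling, by 1.20 ± 0.16 (adjusted p = 0.000325), and Zfp36, which speeds the decay of AU-rich mRNAs, by 1.62 ± 0.37 (adjusted p = 0.00540). Dusp1 in E12 WT 1, at 109 CPM, again stood above E12 WT 2 and 3, at 22.9 and 9.65 CPM.

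The kinases and factors upstream of these genes showed no common direction. Of 27, 6 were higher and 4 lower in E18 DKO, close to the 20.5% of all tested genes called higher, with a median log2 fold change of 0.21. Scaling by total counts alone turned this to 2 higher and 7 lower. At E12, edgeR called 0, and 3 were higher and 4 lower at an unadjusted p under 0.05, where 15.3% of tested genes were lower. The share of all genes higher at that p is not given here for any list. DESeq2 called 3 higher and 1 lower, where it called 2073 genes, 1330 of them lower. Leaving out E12 WT 1 gave 4 higher and 1 lower, where 3199 of all genes were called, 1901 of them lower. The lowest p there belonged to Rps6ka3, at 0.77 ± 0.17 (edgeR adjusted p = 0.0703), and Map3k1, at 0.64 ± 0.16 (adjusted p = 0.0785). Cited2, a partner of the coactivators CBP and p300, was higher by 2.18 ± 0.42 (edgeR adjusted p = 0.00216). Elk4, a partner of serum response factor, was higher by 1.24 ± 0.30 (adjusted p = 0.00655), Crtc2, a coactivator of CREB, by 0.67 ± 0.16 (adjusted p = 0.00685), and Map2k4, a kinase above JNK, by 0.52 ± 0.12 (adjusted p = 0.00583). Rps6ka3, a kinase below ERK, fell by 0.97 ± 0.17 (adjusted p = 0.00134), and Map3k1, a kinase above JNK, fell by 0.77 ± 0.16 (adjusted p = 0.00382). Mapk8, the gene of JNK1, fell by 0.51 ± 0.13 (adjusted p = 0.0111). Elk1, another partner of serum response factor, fell by 0.52 ± 0.18 (adjusted p = 0.0346), and its call was lost in 8 of the 12 fits that omit 1 library.

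Of 20 genes known as AP-1 targets in other cells, 16 were tested, and 8 were higher and 2 lower in E18 DKO, beside 20.5% of all tested genes called higher, with a median log2 fold change of 1.40. The number higher was 3 without labelled E18 WT 2, 4 without E18 DKO 1 or 3, and 5 without labelled E18 WT 1 or any E12 DKO library. It was 4 with scaling by total counts alone and 11 without E12 WT 1 and labelled E18 WT 3 together. At E12, edgeR called 0, with a median of -0.99, and 6 were lower at an unadjusted p under 0.05, where 15.3% of tested genes were. DESeq2 called 3 lower, where it called 1330 genes lower. Leaving out E12 WT 1 gave 2 lower, where 1901 of all genes were. Its lowest p belonged to Vim, at -1.56 ± 0.35 (edgeR adjusted p = 0.0703), and Sprr1a, at -2.54 ± 0.76 (adjusted p = 0.0998). Plaur, the receptor of urokinase, had 182, 170 and 147 CPM in E18 DKO libraries, against 22.5, 16.1 and 23.7 CPM in libraries labelled E18 WT (log2 fold change 3.00 ± 0.74, edgeR adjusted p = 0.00796). Il11, a cytokine, was higher by 3.09 ± 0.61 (adjusted p = 0.00243) at no more than 1.25 CPM, and Vim, the intermediate filament that is also on the list of mesenchyme markers, by 1.63 ± 0.36 (adjusted p = 0.00417). Sprr1a, of the cornified envelope, was higher by 2.65 ± 0.76 (adjusted p = 0.0162), although the groups overlapped, and it lost its call without E18 DKO 3, labelled E18 WT 2 or labelled E18 WT 3 (adjusted p up to 0.0634). Mmp9, a gelatinase, fell by 2.34 ± 0.62 (adjusted p = 0.0109), and Hmox1, a haem-degrading enzyme, fell by 1.72 ± 0.60 (adjusted p = 0.0373). Hmox1 lost its call without E18 DKO 1, E18 DKO 2, labelled E18 WT 3, E12 DKO 3 or E12 WT 2, and without labelled E18 WT 3 its value was -1.06 (adjusted p = 0.169).

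**Figure D5:**
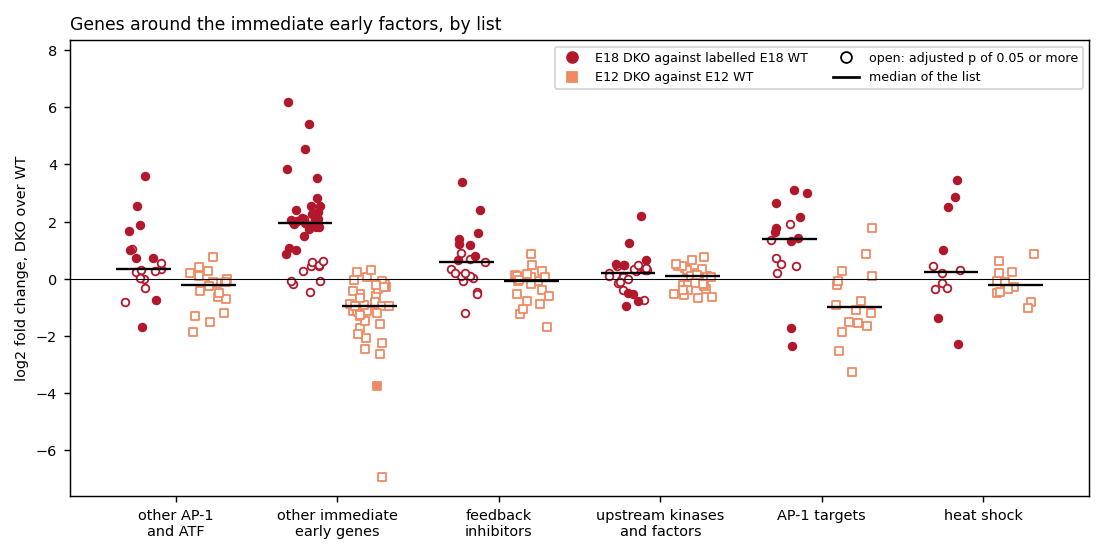
Log2 fold change, DKO over WT, of each tested gene of 6 lists at E18 and E12. Filled symbols passed an edgeR adjusted p of 0.05 and bars are list medians. The median at E18 is 1.97 for other immediate early genes and 0.21 for upstream kinases and factors.

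Heat-shock genes, which can also be induced while tissue is handled, were read beside the members. Of 12, 4 were higher and 2 lower in E18 DKO, beside 20.5% of all tested genes called higher, also with each library left out, while scaling by total counts alone gave 4 higher and 5 lower. At E12, edgeR called 0, and 2 were higher and 2 lower at an unadjusted p under 0.05, where 15.3% of tested genes were lower. DESeq2 called 1 higher and 1 lower, where it called 2073 genes, 1330 of them lower. Without E12 WT 1, edgeR also called 1 higher and 1 lower, where it called 3199 genes, 1901 of them lower. The lowest p at E12 belonged to Hsph1, at 0.87 ± 0.19 (edgeR adjusted p = 0.0703), and Hspb1, at -1.04 ± 0.32 (adjusted p = 0.104). Hspa1a, an inducible HSP70 gene, had 88.4, 43.0 and 68.2 CPM in E18 DKO libraries, against 4.49, 5.16 and 8.49 CPM in libraries labelled E18 WT (log2 fold change 3.46 ± 0.33, edgeR adjusted p = 9.19e-05). Its near-identical copy Hspa1b was higher by 2.86 ± 0.31 (adjusted p = 0.000138), and reads that fit both were not counted, so the split between them is uncertain. Hspb1, a small heat-shock protein, was higher by 2.50 ± 0.33 (adjusted p = 0.000343) and Dnajb1, a partner of HSP70, by 1.00 ± 0.22 (adjusted p = 0.00427). Hspd1 and Hspe1, the mitochondrial chaperonins, were lower. Hspd1 fell by 2.30 ± 0.25 (adjusted p = 0.000135), and Hspe1 fell by 1.37 ± 0.35 (adjusted p = 0.00930). At E12, limma voom called 0 genes of each list for which edgeR called 0. In E12 WT 1, Hspa1a was at 7.88 CPM, against 6.49 and 4.88 CPM in E12 WT 2 and 3.

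Markers of other cell types were read beside the members. The 10 neutrophil markers summed to 200 to 279 CPM in E18 DKO libraries, against 4.67 to 12.6 CPM in libraries labelled E18 WT, and to 3.32 to 7.66 CPM in E12 DKO libraries, against 94.4, 9.10 and 5.41 CPM in E12 WT libraries 1, 2 and 3. Nearly all of the high sums came from 1 gene, the chemokine receptor Cxcr2, at 219, 274 and 174 CPM in E18 DKO libraries, against 1.06, 0.820 and 2.63 CPM in libraries labelled E18 WT, and at 89.9 CPM in E12 WT 1. Of the other 9 markers, Elane was at 0 in all E18 DKO libraries, and Mpo, Camp, Ngp and Retnlg were at 0 to 0.871 CPM there. S100a8 had 0.385, 0.512 and 7.03 CPM in E18 DKO libraries, against 0.339, 0.0879 and 1.52 CPM in libraries labelled E18 WT, and S100a9 had 1.92, 2.18 and 8.61 CPM, against 0.678, 0.352 and 0.903 CPM. Csf3r had 2.64, 0.597 and 6.21 CPM in E18 DKO libraries, against 0.528, 0.352 and 1.48 CPM in libraries labelled E18 WT, and Ltf had 1.92, 2.004 and 3.65 CPM, against 1.66, 2.23 and 5.83 CPM. The 12 epithelial markers, detected at 11 or 12 in each library, summed to 6710 to 8621 CPM in E18 DKO libraries, against 2614 to 3378 CPM in libraries labelled E18 WT, and to 2491 to 2960 CPM in E12 DKO libraries, against 3783 to 6156 CPM in E12 WT libraries. The 10 macrophage markers, all detected, summed to 992 to 1419 CPM in E18 DKO libraries, against 435 to 619 CPM in libraries labelled E18 WT, and to 495 to 509 CPM in E12 DKO libraries, against 392 to 707 CPM in E12 WT libraries. Visceral yolk sac endoderm markers summed to 83498 to 166864 CPM in E18 DKO libraries, against 54139 to 82444 CPM in libraries labelled E18 WT, and to 84790 to 88213 CPM in E12 DKO libraries, against 78751 to 167301 CPM in E12 WT libraries, the highest being E12 WT 1. Endothelial markers summed to 461 to 546 CPM in E18 DKO libraries, against 238 to 427 CPM in libraries labelled E18 WT, and to 253 to 306 CPM in E12 DKO libraries, against 348 to 392 CPM in E12 WT libraries. Mesenchyme markers went the other way at E18, with 3616 to 6378 CPM in E18 DKO libraries, against 14290 to 30945 CPM in libraries labelled E18 WT, and had 13065 to 16140 CPM in E12 DKO libraries, against 12093 to 24149 CPM in E12 WT libraries. Smooth muscle markers overlapped between genotypes at E18, with 706 to 1305 CPM in E18 DKO libraries, against 377 to 774 CPM in libraries labelled E18 WT, and had 523 to 607 CPM in E12 DKO libraries, against 612 to 995 CPM in E12 WT libraries. Lymphocyte markers summed to no more than 2.94 CPM in any library. The part of these cell types in the levels of the members was not tested.

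Outside the list, 6 genes followed the members most closely over the 12 libraries, among the 11181 tested genes that averaged at least 5 CPM. The measure was the Pearson correlation of a gene's log2 CPM with the mean of the members' standardised log2 CPM, a description that the 4 groups shape. It was 0.982 for Gpank1, 0.980 for March2, a membrane-bound ubiquitin ligase, 0.979 for Ppp1r18, 0.978 for Nr4a1, an immediate early nuclear receptor, 0.977 for Lgals3, which encodes galectin-3, and 0.976 for Ppp1r15a, a stress-induced phosphatase subunit. Lgals3 had 820, 563 and 790 CPM in E18 DKO libraries, 42.1, 14.0 and 62.8 CPM in libraries labelled E18 WT, 8.64, 18.8 and 14.2 CPM in E12 DKO libraries, and 328, 54.9 and 38.8 CPM in E12 WT libraries. As with Fos, E12 WT 1 stood above the other libraries of its group.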

How the data were processed

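Trimmomatic 0.36, STAR 2.4.2a and featureCounts (Subread 1.5.0) were used with mouse build GRCm38, per the submitters' processing notes. Per the file headers, the deposited values are raw counts per gene of Ensembl release 86, counted by strand (option 2) and without reads that align to several places. The library kit selected mRNA and kept strand, per the labels' protocols. Counts of 11 libraries came from their own files, each equal to 1 column of the series table, and those of E12 DKO 1 from that table. The 3 columns named for labelled E18 WT carry other numbers than the titles and were not used by name.

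From the counts, CPM were computed with TMM factors, and RPKM with the gene lengths of the files. The fit was edgeR 4.0.16 (quasi-likelihood test, filterByExpr, 1 fit of 12 libraries with a mean per group, 8 residual degrees of freedom) in R 4.3.3, adjusted over 18153 genes at 0.05. An SE is the size of the log2 value over the root of its F statistic. Scripts were tested on simulated data. There, the fit called 6% of genes changed 2-fold and 42% of those changed 4-fold in the E18 comparison. In the E12 comparison it called 11% and 55%, so a gene that is not called may still differ. Alternatives were 22 settings, among them DESeq2 1.42.0 and limma 3.58.1 (voom). The genes, lists and comparisons were chosen with earlier results of these data known. All members are named. Of each list, the called genes with the 4 lowest adjusted p in each direction are named, or, where none was called, the 2 with the lowest unadjusted p. A gene that this rule would name is not reported here. Bgn and Dcn are named as a check. Junos, Prdx2, Gm11175, Cxcr2 and the other single neutrophil markers were chosen after their values were seen. Values of other settings or libraries given beside a result were chosen for showing after they were seen. Total counts of 19967593 to 33065424 set the depth.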

Additional observations from a re-analysis of the deposited data

Results flagged for a closer look

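The genotype effect differed between the labelled stages for 8 members, by the test of the difference itself (E18 minus E12, log2 scale, edgeR adjusted p under 0.05, with fold changes above 0 at E18 and below 0 at E12 for each). The difference was 5.15 ± 1.22 for Fos (SE, adjusted p = 0.00677), 4.51 ± 1.00 for Fosb (adjusted p = 0.00495) and 4.20 ± 0.47 for Atf3 (adjusted p = 0.000223). It was 3.16 ± 0.50 for Junb (adjusted p = 0.000823), 2.67 ± 0.29 for Jund (adjusted p = 0.000198) and 1.58 ± 0.50 for Jun (adjusted p = 0.0264). It was 2.30 ± 0.63 for Egr1 (adjusted p = 0.0134) and 1.66 ± 0.35 for Ier2 (adjusted p = 0.00391). Of all 18153 tested genes, 21.6% were called in this direction. Without E12 WT 1 and labelled E18 WT 3 together, the difference was 3.60 for Fos (adjusted p = 0.000756) and 1.60 for Jun (adjusted p = 0.00108). With E12 WT 1 alone left out, it was 3.04 for Fos, 3.78 for Fosb, 1.87 for Egr1 and 1.14 for Jun, all still called. Jun lost its call without E18 DKO 1, labelled E18 WT 1, labelled E18 WT 2, E12 DKO 1 or E12 DKO 2 (edgeR adjusted p from 0.0543 to 0.0660), and with scaling by total counts alone (0.91, adjusted p = 0.153). The strain label and the doubt on the wild-type stage labels apply to both stages, and their part in it cannot be told apart from genotype.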

How the results depend on the processing

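Members were recomputed under 22 other settings, and 12 of these left out 1 library each. The 6 members called at E18 became 4 to 8 with 1 library left out, all higher. Over all genes, 5833 to 9452 were called at E18 with 1 library left out, beside 7678 in the fit reported here. DESeq2 and limma voom each called 7, with Egr1 added, and the 2-fold threshold left 5, without Ier2. Counts over all genes are not given here for every setting, so changes in member counts are not read as results about the members. At E12, the 1 called member became 0 with scaling by total counts alone, with no filter, with the replicate block and with only the groups compared, and 4 with DESeq2. It became 0 to 3 with 1 library left out, where 1 to 3199 of all genes were called, and 4 without E12 WT 1 and labelled E18 WT 3. For labelled E18 WT against E12 WT, 0 became 2 with DESeq2, 0 to 1 with 1 library left out and 1 without both libraries. The member gained was Ier2, at -0.89 without E12 WT 1 (edgeR adjusted p = 0.0143). Over all genes, 35 to 1684 were called there with 1 library left out, and 9 to 60 for E12 DKO against labelled E18 WT. For E12 DKO against labelled E18 WT, 0 became 2 with DESeq2 and 1 without both. In uncalled comparisons the sign turned for a few members. In labelled E18 WT against E12 WT, values ran with 1 library left out from -1.49 (without labelled E18 WT 3) to 1.19 (without E12 WT 1) for Fos, from -0.55 to 0.36 for Jun (the same libraries) and from -0.0091 to 1.22 for Egr1 (the same libraries). Jun was also above 0 at 0.12 and 0.09 without labelled E18 WT 1 and 2, and at 0.24 with total counts alone, and Fos was 0.62 without both libraries. In E12 DKO against labelled E18 WT, Junb was 0.14 without labelled E18 WT 1. The causes were not tested.

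Of all genes, 64 were called at E12, against 2073 with DESeq2, 3199 without E12 WT 1 and 1 at the lowest with a library left out. Same-numbered libraries of paired groups had correlations of their deviations from -0.18 to 0.18, so the numbers were not read as pairs. With the replicate block, 6 members were called at E18, 0 at E12, 8 for the difference and 9 for E18 DKO against E12 DKO. No count over all genes under the block is given here, so these are not read as results about the members. The difference was not fitted with only the groups compared, since it uses all 4. At 2 to 29 counts, Egr2 was too low for small changes to be seen.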

Other observations

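Replicates spread unequally between groups. Fitted by edgeR one group at a time, the common biological coefficient of variation was 0.331 in E18 DKO, 0.338 in labelled E18 WT, 0.177 in E12 DKO and 0.545 in E12 WT libraries. Single libraries led their group across members. Of the 8 members with a mean of 5 CPM or more, E12 WT 1 was highest in its group for 7, and labelled E18 WT 3 and E18 DKO 1 for 5 each. The same count over all genes is not given here, so this is not read as a result about the members.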
